A study of Mus musculus with 22 samples.

Results

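Matrix metalloproteinases are zinc-dependent endopeptidases that cut collagens, elastin, proteoglycans and many cell-surface and soluble proteins, and the tissue inhibitors of metalloproteinases (TIMPs) are small proteins that bind and block their active sites. The account below covers 10 genes of the mouse lung, 7 proteases (Mmp2, Mmp3, Mmp11, Mmp12, Mmp13, Mmp14 and Mmp19) and 3 inhibitors (Timp1, Timp2 and Timp3), out of 24405 genes in the count tables. They were taken by gene symbol.

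All 4 groups were C57BL/6 mice, called old wild type in the design text with no age given, and RNA was taken from right lung tissue (caudal lobes). By the labels, mice were sensitised with saline or with ovalbumin (OVA), a protein used as a model allergen, and each arm was split into animals given no particulate matter (PM) and animals given 3 µg of PM collected at a goat farm. The groups held 6 libraries (saline, no PM), 5 libraries (saline, PM), 6 libraries (OVA, no PM) and 5 libraries (OVA, PM). The extraction protocol writes the arms as OVA/Sal and OVA/OVA, which can also mean sensitised mice challenged with saline, and the neutral names saline arm and OVA arm are used here. The series title asks whether farm PM alters the acute allergic airway response. The labels do not say that each library is a separate animal, so the p-values rest on the scatter among the libraries, part of which may be technical.

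Most metalloproteinases are made as inactive proenzymes and are switched on by removal of a propeptide, so an mRNA level is not an activity. In the lung, Mmp12 is known as the elastase of macrophages, while Mmp2, Mmp14 and Timp2 are known mostly from mesenchymal cells. Mouse Mmp13, Mmp12 and Mmp3 lie in a cluster of related protease genes on chromosome 9, and TIMP2 is known to help MMP14 activate MMP2 at the cell surface.

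By GENCODE M21 on GRCm38, all 10 are protein-coding genes. Mmp13 (chr9:7272514-7283331), Mmp12 (chr9:7344381-7369499) and Mmp3 (chr9:7445822-7455975) lie on the plus strand within the cluster. The others are spread over the genome, with Mmp2 at chr8:92827291-92853420, Mmp14 at chr14:54431612-54445364, Mmp19 at chr10:128790910-128800824, Timp3 at chr10:86300372-86349506 and Timp1 at chrX:20870166-20874735 on the plus strand, and Mmp11 at chr10:75923222-75936496 and Timp2 at chr11:118301069-118355740 on the minus strand.

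The proximal promoters of the 3 clustered genes are shown because they lie in 1 cluster and their mRNAs moved differently in the comparisons below. The sequences are from RefSeq (GRCm38.p6), plus strand, and end just before an annotated transcription start. Capitals mark matches to the AP-1 element TGANTCA and to the TATA element TATAAA, searched on both strands. The entries are Mmp13 at chr9:7272264-7272513, Mmp12 at chr9:7344147-7344380 (cut short where an annotated exon begins), a second Mmp12 start inside the gene at chr9:7347124-7347373, and Mmp3 at chr9:7445572-7445821.
Mmp13: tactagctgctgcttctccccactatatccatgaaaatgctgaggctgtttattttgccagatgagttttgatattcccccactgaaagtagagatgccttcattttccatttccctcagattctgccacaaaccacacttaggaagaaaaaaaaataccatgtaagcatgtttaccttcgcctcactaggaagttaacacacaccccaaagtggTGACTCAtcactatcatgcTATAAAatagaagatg
Mmp12, upstream start: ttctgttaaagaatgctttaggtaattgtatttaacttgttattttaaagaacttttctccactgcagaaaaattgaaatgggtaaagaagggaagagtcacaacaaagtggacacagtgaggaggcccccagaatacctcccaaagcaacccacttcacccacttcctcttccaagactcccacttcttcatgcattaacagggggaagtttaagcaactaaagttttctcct
Mmp12, internal start: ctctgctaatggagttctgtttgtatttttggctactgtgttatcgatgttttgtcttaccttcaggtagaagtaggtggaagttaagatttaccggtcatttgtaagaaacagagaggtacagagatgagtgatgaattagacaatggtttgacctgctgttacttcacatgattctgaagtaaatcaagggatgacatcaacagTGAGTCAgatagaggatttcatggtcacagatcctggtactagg
Mmp3: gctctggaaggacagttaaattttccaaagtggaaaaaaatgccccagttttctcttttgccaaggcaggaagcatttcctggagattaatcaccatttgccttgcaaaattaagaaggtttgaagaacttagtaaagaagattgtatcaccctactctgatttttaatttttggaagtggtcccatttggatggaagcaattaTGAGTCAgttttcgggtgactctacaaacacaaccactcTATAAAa

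The AP-1 letters stood at positions -35 to -29 of the Mmp13 window, -46 to -40 of the Mmp3 window and -44 to -38 of the internal Mmp12 window. Positions are counted back from the annotated transcription start and depend on that annotation. The upstream Mmp12 window had no such match. Over all 32851 RefSeq mouse promoters, 6.75% held the AP-1 letters and 12.4% held TATAAA in the same 250 bases. The 2 TATAAA matches were in Mmp13, at -16 to -11, and in Mmp3, at -7 to -2. A match describes letters and was not tied to binding in these samples. Of the 10 genes, 8 had a promoter entry, and the spaced STAT6 element (TTC and GAA set 4 bases apart), present in 5.85% of all promoters, was in none of their 9 windows. An NF-kB pattern (GGG and CC set 5 bases apart, either strand) was found in the windows of Timp1, Timp3 and the upstream start of Mmp12, but 45.8% of all promoters held it.

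Library totals spanned 0.302 M to 28.0 M counts, and 3 libraries held fewer than 2 M (OVA without PM replicate 4, OVA with PM replicates 4 and 5). The lung epithelial genes Sftpc (16530 to 45380 CPM, counts brought to the same library size by trimmed means), Scgb1a1 (10360 to 44640 CPM) and Ager (1939 to 3380 CPM) were high in all 22 libraries. Muc5ac, an airway mucin gene known to rise in allergic lungs, was at 94.2 to 264 CPM in 9 of the 11 OVA arm libraries and at 0.518 to 10.6 CPM in the saline arm. In 2 OVA arm libraries it was far lower, at 20.9 CPM in replicate 2 without PM and at 10.1 CPM (3 counts) in replicate 4 with PM. Results that change without these 2 libraries are given with both values.

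Levels of different genes were compared per kilobase of all annotated exon bases, which for some genes far exceed the longest transcript. These lengths were 8144 and 4722 bases for Timp3, 7237 and 4474 for Mmp12, 5960 and 3238 for Mmp14, and 3896 and 3709 for Timp2. The order depends on the length used. In the saline arm without PM, Timp2 was by this measure the highest of the 10 at a mean of 113 CPM per kb, followed by Timp3 at 77.8 CPM per kb. In plain CPM, Timp3 (mean 634) was above Timp2 (441) in that group. Next per kb was Mmp2, which encodes a gelatinase, at 30.8 CPM per kb. Mmp11 (20.7 CPM per kb), Timp1 (12.4), Mmp3 (8.33), Mmp19 (7.57) and Mmp14 (6.30) followed, and Mmp12 (3.62) and Mmp13 (0.427) were the lowest. In the OVA arm with PM the order was changed at the top. Mmp12 then stood at 115 CPM per kb, beside Timp2 at 89.4 and Timp3 at 53.2. The spread of Mmp12 in that group was wide, at 82.0% of its mean (n = 5), so its place relative to Timp2 and Timp3 is not separated by these libraries.

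**Figure D1:**
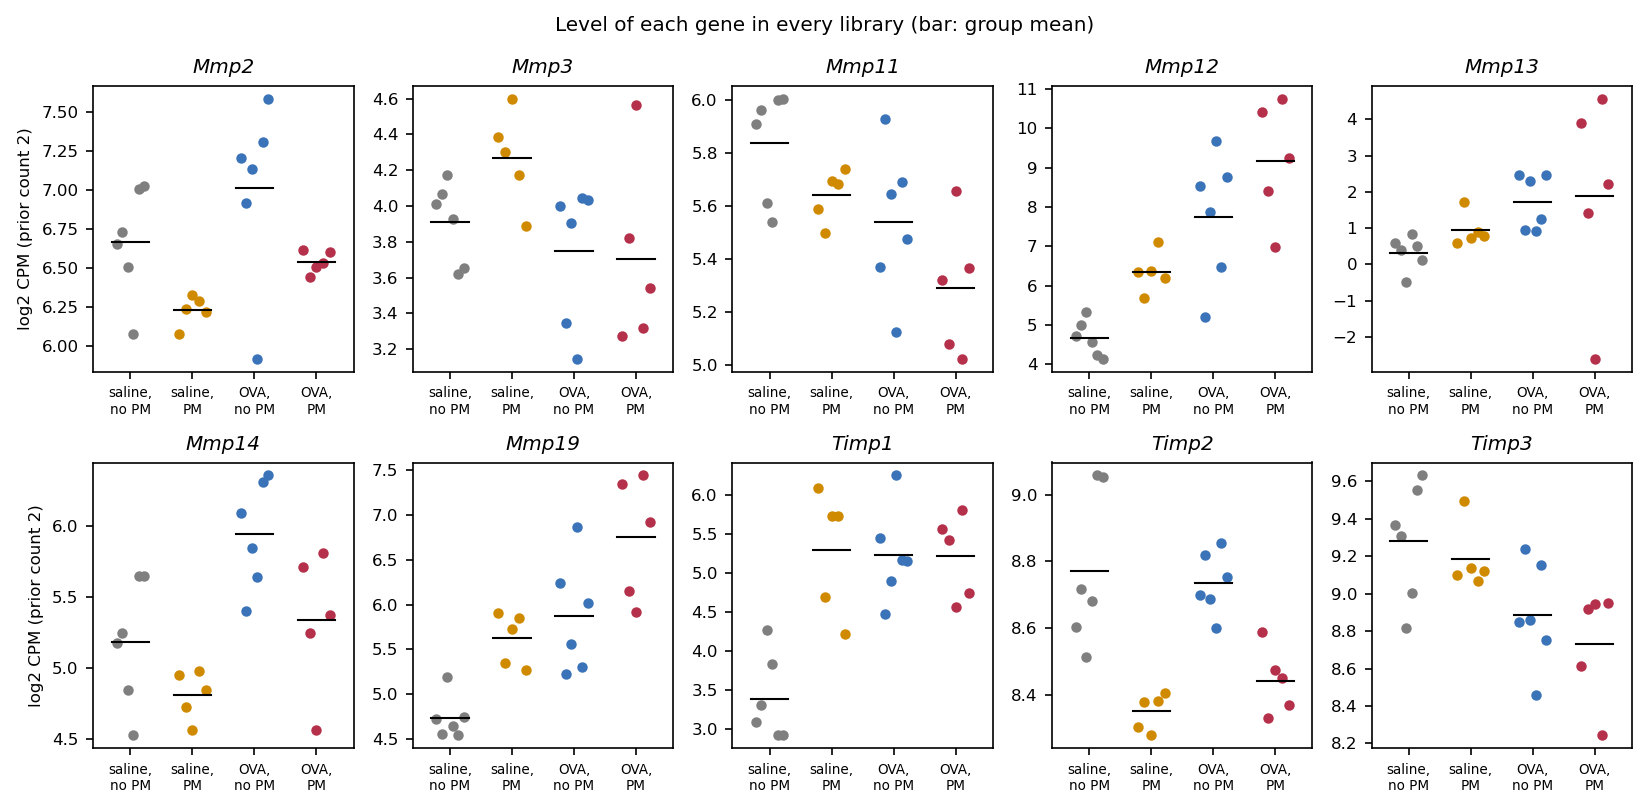
Level of each of the 10 genes in every library as log2 CPM with a prior count of 2, with each point a library and each bar a group mean. The lowest Mmp13 point of the OVA arm with PM is replicate 4, which had 0 counts, and the Mmp12 points climb from the saline arm without PM (17.5 to 39.9 CPM) to the OVA arm with PM (127 to 1719 CPM).

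The macrophage elastase Mmp12, the collagenase Mmp13, the membrane-bound protease Mmp14 and the secreted protease Mmp19 were higher in the OVA arm, and each passed the test both without PM and with PM. The inhibitor Timp1 was higher in the OVA arm without PM. The other 2 inhibitors, Timp2 and Timp3, did not pass without PM. Without PM, 5 of 10 members rose and 0 fell by edgeR's quasi-likelihood test at an adjusted p of 0.05, while 23.6% of all 14632 tested genes passed, 14.4% higher and 9.27% lower. In bulk lung RNA, a change in the number of cells of a type and a change in RNA per cell cannot be told apart, for rises or falls.

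Mmp12 was at 17.5 to 39.9 CPM (median 24.8) in the saline arm without PM and at 37.0 to 814 CPM (median 302) in the OVA arm without PM. The ranges overlapped by a single OVA library, replicate 2, which is also the one with low Muc5ac, and the other 5 lay above every saline library. The fitted log2 fold change was 3.66 ± 0.59 (SE; 12.7-fold, edgeR adjusted p = 0.000452).

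Timp1, the inducible inhibitor of the family, was at 7.39 to 19.2 CPM (median 9.03) in the saline arm and at 22.1 to 75.9 CPM (median 35.5) in the OVA arm without PM. The groups did not overlap, and the log2 fold change was 1.91 ± 0.30 (SE; 3.75-fold, edgeR adjusted p = 0.000353). Mmp19, a secreted protease also made by macrophages, was at 23.1 to 36.3 CPM (median 25.5) and 37.2 to 116 CPM (median 55.7) in the same groups. Its groups did not overlap either, and it rose by 1.21 ± 0.24 on the log2 scale (SE; edgeR adjusted p = 0.00228).

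Mmp13 was scarce, with 3 to 25 counts per library in the saline arm and 3 to 128 in the OVA arm without PM. In CPM it was at 0.547 to 1.63 (median 1.21) and at 1.74 to 5.41 (median 3.47), with every OVA library above every saline library. Its log2 fold change was 1.77 ± 0.33 (SE; 3.40-fold, edgeR adjusted p = 0.00137), but the OVA library nearest the saline range, replicate 4, held only 3 counts. Mmp14, which cuts collagen at the cell surface and activates proMMP2, was at 22.9 to 50.01 CPM (median 36.9) and 42.1 to 81.6 CPM (median 62.6), with 4 of 6 OVA libraries above all saline libraries. It rose by 0.74 ± 0.19 on the log2 scale (SE; edgeR adjusted p = 0.0124).

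Across all genes tested here, 6.9% had no overlap between the groups with the OVA arm higher and 3.51% with it lower, against 3 (Mmp13, Mmp19 and Timp1) and 0 of the 10 members. The 5 members that did not pass were Mmp2 (log2 fold change 0.42, adjusted p = 0.171), Mmp3, the stromelysin (-0.06, 0.822), Mmp11 (-0.26, 0.141), Timp2 (-0.03, 0.871) and Timp3 (-0.38, 0.0893), all by edgeR. Without replicate 2 of the OVA arm, the library of this comparison with low Muc5ac, Timp3 passed at -0.46 (adjusted p = 0.0404) and Mmp11 at -0.35 (adjusted p = 0.0345) in edgeR. Timp3 also passed with all 4 groups in the fit (-0.40, adjusted p = 0.0438), with an offset for length and GC content of transcripts (-0.42, adjusted p = 0.0318) and without saline replicate 3 (-0.46, adjusted p = 0.0336). Mmp2 passed at 0.55 (edgeR adjusted p = 0.0179) without replicate 4 of the OVA arm.

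**Figure D2:**
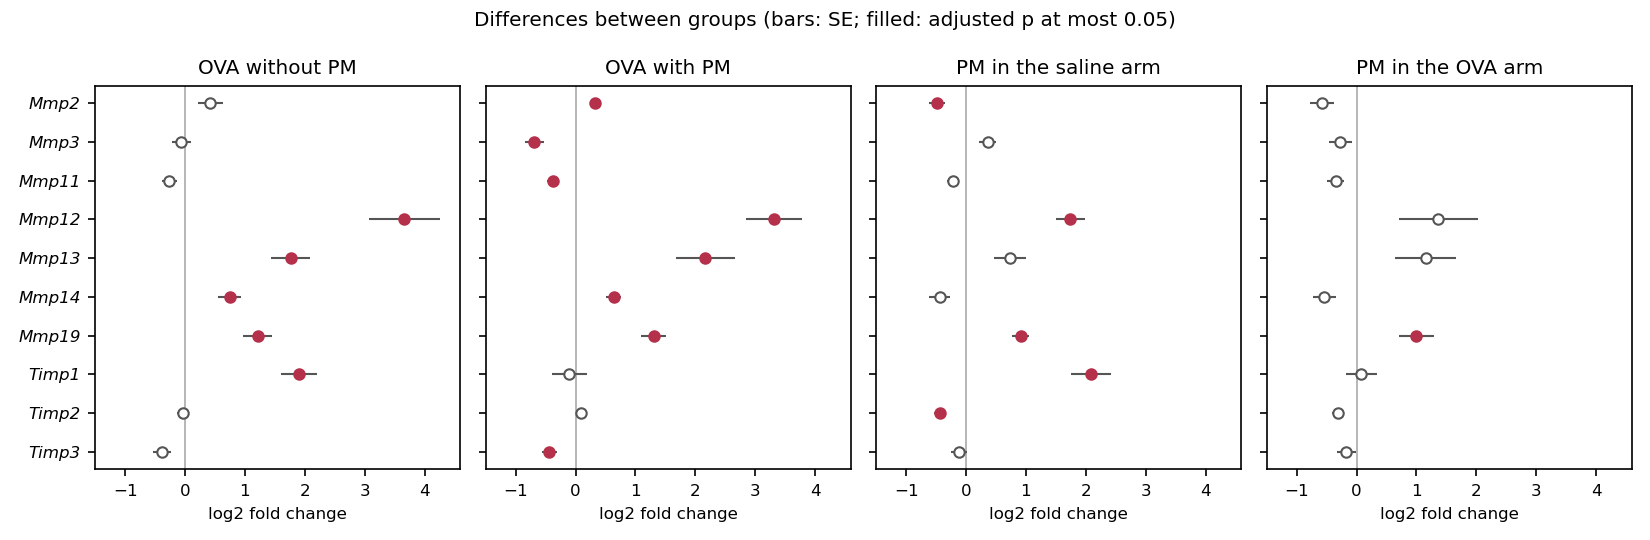
Log2 fold change of each of the 10 genes in 4 comparisons of groups, with bars for the standard error and filled points where the edgeR adjusted p was at most 0.05. Mmp12 shows the largest values in the 2 OVA comparisons (3.66 and 3.31), and Timp1 stands near 2 in OVA without PM and PM in the saline arm, and near 0 in the other comparisons.

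With PM in both arms, 5 of 10 members rose in the OVA arm and 3 fell, while 22.8% of all 14250 tested genes passed, 13.2% higher and 9.57% lower. This comparison used 10 libraries that the previous comparison did not. Mmp12 was at 51.6, 72.9, 81.9, 83.4 and 138 CPM in the saline arm and at 127, 342, 604, 1366 and 1719 CPM in the OVA arm with PM. The lowest OVA library, replicate 4 with low Muc5ac, was the only one below the highest saline library. Mmp12 rose by 3.31 ± 0.47 (SE; 9.92-fold, edgeR adjusted p = 7.03e-05).

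Mmp19 stood at 38.5, 40.5, 52.9, 57.6 and 59.96 CPM in the saline arm with PM and at 60.3, 70.9, 121, 162 and 174 CPM in the OVA arm with PM. The groups did not overlap, though the gap between them was narrow, and the log2 fold change was 1.30 ± 0.21 (SE; edgeR adjusted p = 0.000233). Mmp13 was at 1.34, 1.49, 1.56, 1.68 and 3.13 CPM in the saline arm and at 0, 2.49, 4.48, 14.9 and 23.5 CPM in the OVA arm. The library at 0 counts was replicate 4, in which 3 counts would be 10.1 CPM, so its level is not resolved. The log2 fold change was 2.17 ± 0.49 (SE; edgeR adjusted p = 0.00371), and it was 1.54 (adjusted p = 0.0575) when the library at 14.9 CPM, OVA replicate 1, was left out.

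Mmp14 was at 23.5, 26.3, 28.5, 30.8 and 31.3 CPM in the saline arm with PM and at 23.5, 37.8, 41.4, 52.3 and 55.9 CPM in the OVA arm with PM. All OVA libraries but replicate 4 lay above the saline range, and Mmp14 rose by 0.64 ± 0.13 (SE; edgeR adjusted p = 0.00124). Mmp2 was at 67.4, 74.2, 75.0, 77.9 and 79.9 CPM and at 86.9, 90.5, 92.1, 97.1 and 97.8 CPM, 2 narrow and separate ranges. It rose by 0.33 ± 0.08 (SE; edgeR adjusted p = 0.00467), and in a fit of all 4 groups, whose pooled spread is wider, the value was 0.32 (adjusted p = 0.282).

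The members that fell in the OVA arm with PM were Mmp3, Mmp11, known as stromelysin-3, and Timp3, the inhibitor that is bound to the matrix. Mmp3 was at 14.7, 17.9, 19.5, 20.7 and 24.1 CPM in the saline arm and at 9.50, 9.80, 11.5, 14.0 and 23.5 CPM in the OVA arm. The last value is replicate 4 with 7 counts, and the other 4 lay below every saline library. The log2 fold change was -0.69 ± 0.16 (SE; edgeR adjusted p = 0.00502).

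Mmp11 was at 45.0 to 53.3 CPM in the saline arm with PM and at 32.3, 33.7, 39.8, 41.1 and 50.3 CPM in the OVA arm with PM, a fall by 0.38 ± 0.09 (SE; edgeR adjusted p = 0.0065). Timp3 was at 536, 548, 558, 563 and 721 CPM and at 302.8, 391.3, 482.9, 492.8 and 494.4 CPM, with no overlap. It fell by 0.44 ± 0.13 (SE; edgeR adjusted p = 0.0228), and missed the threshold at -0.35 (adjusted p = 0.0669) without saline replicate 2, the library at 721 CPM, at -0.40 (adjusted p = 0.0732) without OVA replicate 1 and at -0.44 (adjusted p = 0.0668) with all 4 groups in the fit. Of all genes, 6.67% had separate groups with the OVA arm higher and 5.87% with it lower, against 2 (Mmp2 and Mmp19) and 1 (Timp3) of the 10 members. Timp1 (-0.10 ± 0.29, edgeR adjusted p = 0.868) and Timp2 (0.10 ± 0.08, adjusted p = 0.472) did not pass.

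With PM in the saline arm 3 of 10 members rose, Timp1, Mmp12 and Mmp19, and 2 fell, Mmp2 and Timp2. Of all 14496 tested genes, 12.8% passed, 5.47% higher and 7.37% lower. All PM libraries carry sample numbers from another series than the libraries without PM. Whether they were also prepared or run apart is not given in the sources used here, so within an arm PM and any other difference that goes with those numbers cannot be told apart.

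Timp1 was at 7.39 to 19.2 CPM (median 9.03) without PM and at 18.4, 25.7, 52.9, 53.0 and 67.6 CPM with PM. All PM libraries but replicate 6 lay above the whole range without PM, and the 5 values spread widely. Timp1 rose by 2.08 ± 0.33 on the log2 scale (SE; 4.24-fold, edgeR adjusted p = 0.00403). For Mmp12 the 5 PM libraries listed above, at 51.6 to 138 CPM, were all higher than the 6 without PM, at most 39.9 CPM. It rose by 1.74 ± 0.24 on the log2 scale (SE; 3.34-fold, edgeR adjusted p = 0.00206).

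Mmp19 rose by 0.91 ± 0.14 (SE; 1.88-fold, edgeR adjusted p = 0.00358), from 23.1 to 36.3 CPM without PM to 38.5 to 59.96 CPM with PM, again without overlap. Timp2, the inhibitor that also takes part in proMMP2 activation, was at 365 to 533 CPM (median 415) without PM and at 310.3, 315.8, 332.5, 333.4 and 339.0 CPM with PM. Every PM library was below every library without PM, and it fell by 0.44 ± 0.11 (SE; edgeR adjusted p = 0.0225). That call was lost without replicate 1 (adjusted p = 0.054), replicate 3 (0.0509) or replicate 5 (0.0517) of the PM group in edgeR, with values of -0.42 to -0.44 in these fits.

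Mmp2 was at 67.3 to 129.8 CPM (median 103) without PM and at 67.4 to 79.9 CPM with PM, so the PM libraries lay inside the lower part of the range without PM. It fell by 0.49 ± 0.14 (SE; edgeR adjusted p = 0.0358). This call did not hold in 9 of the 11 fits that left out a library (adjusted p up to 0.0817), nor with all 4 groups in the fit (-0.49, adjusted p = 0.0665) or with the length and GC offset (-0.33, adjusted p = 0.0768). Of all genes, 2.68% had separate groups with PM higher and 3.19% with PM lower, against 2 (Mmp12 and Mmp19) and 1 (Timp2) of the 10 members. Mmp3 (0.36, adjusted p = 0.0899), Mmp13 (0.73, 0.0815), Mmp14 (-0.44, 0.0903), Mmp11 (-0.22, 0.129) and Timp3 (-0.12, 0.593) did not pass in edgeR.

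With PM in the OVA arm 1 of 10 members rose, Mmp19, and 0 fell, while 9.14% of all 14657 tested genes passed, 2.27% higher and 6.87% lower, so the count of members says little here. Without an adjustment, 6 of the 10 had p under 0.05. The share of all genes under that limit was not computed, so this count says little about the members either. Mmp19 was at 37.2 to 116 CPM (median 55.7) without PM and at 60.3 to 174 CPM (median 121) with PM, with 3 of 5 PM libraries above the range without PM. The log2 fold change was 1.0 ± 0.29 (SE; edgeR adjusted p = 0.0452). The call was lost under DESeq2 (0.92, adjusted p = 0.0911), with the length and GC offset (1.03, adjusted p = 0.0763), without the 2 libraries with low Muc5ac (0.96, adjusted p = 0.0662) and without any of 8 single libraries out of 11 (adjusted p up to 0.151).

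Mmp12 and Mmp13 had the largest fitted values of the 10 in this comparison without passing. Mmp12 was at 37.0 to 814 CPM (median 302) without PM and at 127 to 1719 CPM (median 604) with PM, and its log2 fold change was 1.36 ± 0.66 (SE; edgeR adjusted p = 0.189). Both groups spread over more than an order of magnitude, and 3 of the 5 PM libraries lay inside the range without PM. Without replicate 4 of the group without PM, the library at 814 CPM, the value was 1.85 (edgeR adjusted p = 0.0495). Mmp13 was at 1.15 ± 0.51 (SE; edgeR adjusted p = 0.149), with 2 PM libraries, at 14.9 and 23.5 CPM, well above the rest.

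Timp2 was at 388 to 463 CPM (median 424) without PM and at 321.8, 330.3, 349.9, 355.3 and 384.4 CPM with PM, and these groups did not overlap, as for 2.23% of all genes in that direction and 1.27% in the other. Its log2 fold change was -0.31 ± 0.10 (SE; edgeR adjusted p = 0.0557), and it passed under DESeq2 (-0.30, adjusted p = 0.00963). Mmp2 (-0.58 ± 0.20, adjusted p = 0.0742) and Mmp14 (-0.54 ± 0.19, adjusted p = 0.0754) were close to the threshold in edgeR, and Mmp2 passed at -0.70 (adjusted p = 0.00519) without the libraries under 2 M counts and Mmp14 at -0.60 (adjusted p = 0.047) without the 2 libraries with low Muc5ac. Scaling by library totals in place of trimmed means moved the median of all genes by -0.11 in this comparison and changed the share of called genes that were higher from 24.8% to 8.96%, and with it Mmp2, Mmp14 and Timp2 passed. In the OVA comparison with PM the same scaling changed that share from 58% to 44%.

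The effect of PM on Timp1 was 2.08 in the saline arm and 0.08 ± 0.26 (SE; edgeR adjusted p = 0.888) in the OVA arm on the log2 scale. In the OVA arm Timp1 was at 22.1 to 75.9 CPM (median 35.5) without PM and at 23.5, 26.7, 42.7, 46.9 and 55.9 CPM with PM, fully within the same range. The mean level was 11.01 ± 4.70 CPM (SD, n = 6) in the saline arm without PM, and 43.5 ± 20.6 (SD, n = 5), 40.3 ± 18.8 (SD, n = 6) and 39.1 ± 13.7 CPM (SD, n = 5) in saline with PM, OVA without PM and OVA with PM. The latter 3 groups overlapped broadly.

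The difference of the PM effects between the arms was tested directly. For Timp1 it was -1.995 ± 0.46 (SE; edgeR adjusted p = 0.163), so Timp1 did not pass over all 14942 genes. Of all genes 0.0937% passed, and 0 of the 10 members did. Of the members 2 had an unadjusted p under 0.05, for which the share of all genes was not computed. DESeq2 called 0 of the 10 as well. Timp1 passed with the length and GC offset (-2.04, adjusted p = 0.0257) and when saline replicate 6 with PM, the lowest Timp1 library of its group, was left out (-2.20, adjusted p = 0.0276). For Mmp12 the difference was -0.35 ± 0.79 and for Mmp19 0.11 ± 0.36 (SE), so the PM effects on these genes were not separated between the arms, with errors that leave room for sizeable differences in Mmp12. The second member with an unadjusted p under 0.05 was Mmp3, at -0.62 ± 0.24 (SE; edgeR adjusted p = 1).

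**Figure D3:**
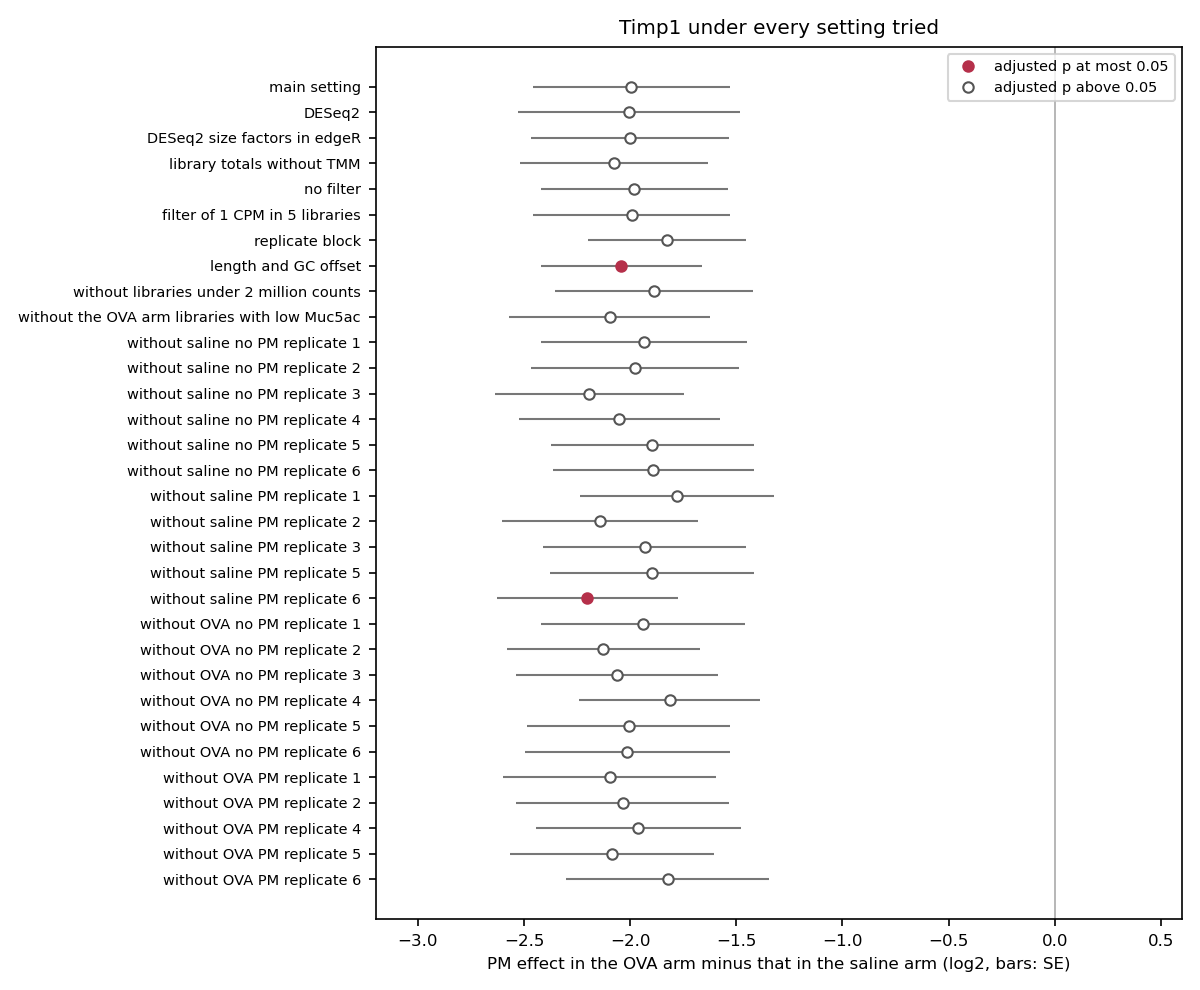
Difference of the PM effects on Timp1 between the arms (OVA arm minus saline arm, log2) under each setting tried, with bars for the standard error and filled points where the adjusted p was at most 0.05. All values lie below 0, between -2.20 and -1.78 in the fits that leave out a library, and 2 settings pass the threshold.

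The 3 clustered genes on chromosome 9 were set beside their neighbours. In the order of the chromosome the cluster runs Mmp13, Mmp12, Mmp1b, Mmp3, Mmp1a, Mmp10, Mmp8, Mmp27, Mmp20 and Mmp7. Mmp12 and Mmp3 are separated by Mmp1b, which had 0 counts in all libraries, as did Mmp1a. Mmp10 and Mmp7 had at most a few counts per library, Mmp20 had 1 count in all, and Mmp27 reached at most 1.78 CPM.

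Mmp8, the neutrophil collagenase, was the other neighbour with a clear level, at group means of 6.84 ± 2.73 (SD, n = 6), 7.57 ± 1.81 (SD, n = 5), 5.53 ± 0.74 (SD, n = 6) and 8.95 ± 2.64 CPM (SD, n = 5) in saline without PM, saline with PM, OVA without PM and OVA with PM. It rose with PM in the OVA arm by 0.53 ± 0.16 (SE; edgeR adjusted p = 0.0452). Mmp3, between Mmp12 and Mmp8, had group means of 15, 19.4, 13.7 and 13.6 CPM in the same order. Neither Mmp3 nor Mmp8 passed the test with OVA without PM, in which Mmp12 and Mmp13 rose.

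**Figure D4:**
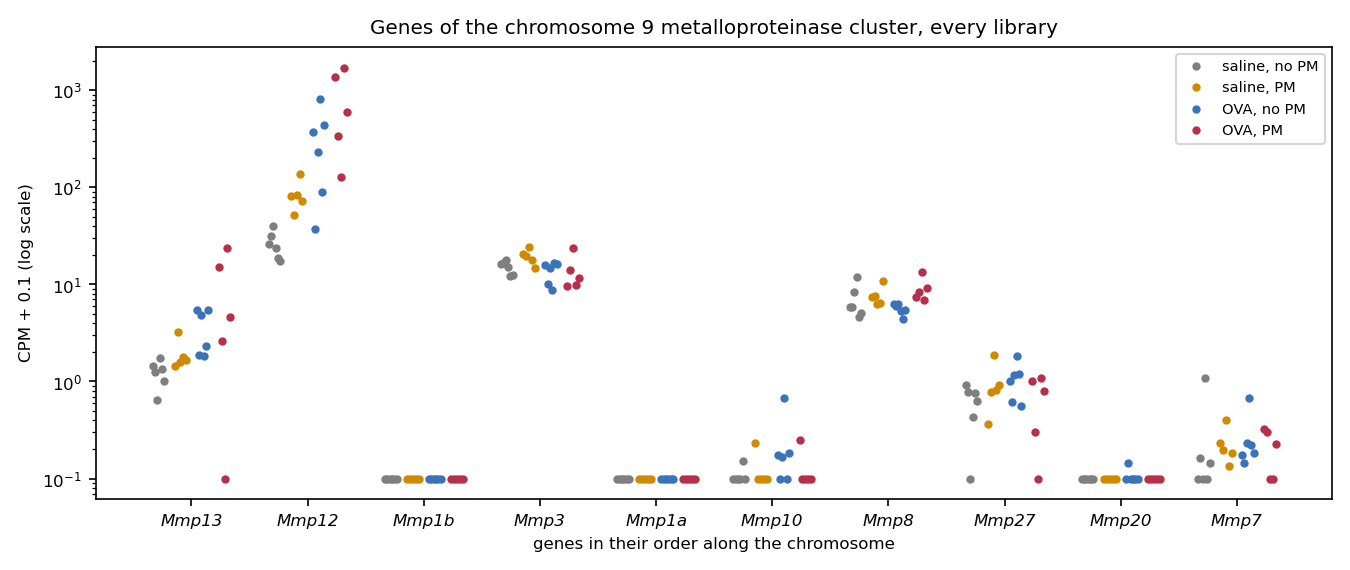
CPM plus 0.1 on a log axis for the genes of the chromosome 9 protease cluster in chromosomal order, with each point a library coloured by group. Mmp12 spans from 17.5 to 1719 CPM, Mmp3 and Mmp8 stay between 4.27 and 24.1 CPM in all groups, and points at the bottom are libraries with 0 counts.

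Monocyte and macrophage markers rose beside members with OVA and with PM in the saline arm, but not with PM in the OVA arm, where Mmp19 rose. The summed CPM of 11 such markers was 624 to 945 in the saline arm without PM, 954 to 1108 in the saline arm with PM, 1437 to 2198 in the OVA arm without PM and 1522 to 2475 in the OVA arm with PM, and 0 of the 11 were at 0 in any group. Of these 11 markers, 10 rose with OVA without PM, 10 with OVA with PM and 7 with PM in the saline arm, and 0 passed with PM in the OVA arm. Of 7 alveolar macrophage markers tested, 0 passed with OVA without PM, 5 rose and 1 fell with OVA with PM, 3 rose with PM in the saline arm and 2 with PM in the OVA arm, where Mmp19 rose. Those 2 were Krt79 (0.93, edgeR adjusted p = 0.0167) and Pparg (0.76, edgeR adjusted p = 0.0477). The summed level of the 7 was 539 to 956 CPM in saline without PM, 880.1 to 946 in saline with PM, 621 to 1467 in OVA without PM and 967 to 1198 in OVA with PM, with 0 of them at 0 in any group. In OVA without PM only replicate 4 was at 1467 CPM, and the other libraries of that group were at 621 to 690 CPM. Eosinophil markers (3 of 4 tested) and B cell markers (4 of 4) also rose with OVA, without PM and with PM, and 3 of 4 and 2 of 4 rose with PM in the saline arm. T cell markers rose for 3 of 5 with OVA without PM and 1 of 5 with OVA with PM. Neutrophil markers rose for 1 of 8 and 1 of 7 in these comparisons, and for 2 of 7 with PM in the saline arm. Among all genes 14.4% were higher with OVA without PM and 13.2% with OVA with PM. With PM, 5.47% were higher in the saline arm and 2.27% in the OVA arm. The part of these cells in the results for Mmp12, Mmp13, Mmp19 and Timp1 was not tested. Within the OVA arm without PM, replicate 4 (1.84 M counts) had the highest Mmp12, Mmp19 and Timp1 of its group and the lowest Mmp2, Timp2 and Timp3.

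**Figure D5:**
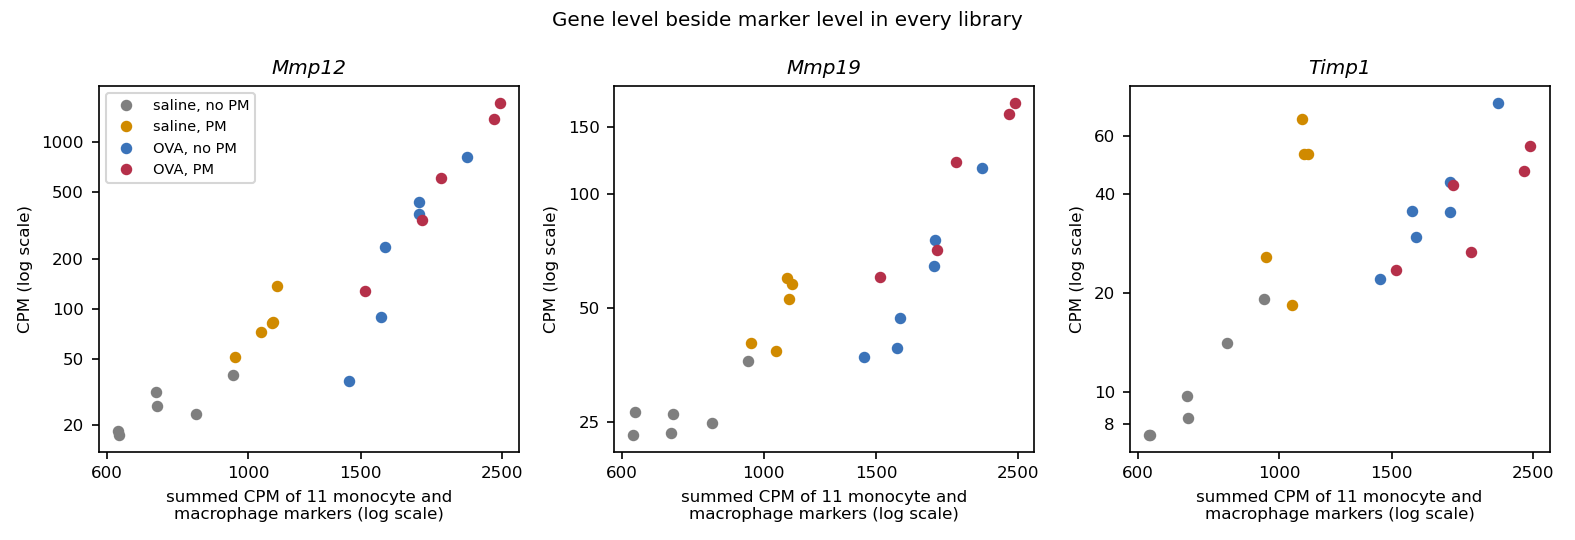
CPM of Mmp12, Mmp19 and Timp1 against the summed CPM of 11 monocyte and macrophage markers, with each point a library and both axes on a log scale. Mmp12 and Mmp19 climb with the marker sum across the groups, while for Timp1 3 saline arm libraries with PM reach 52.9 to 67.6 CPM at a marker sum of at most 1108.

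Markers of vessel and muscle cells were lower with PM in both arms. Members passed as lower with PM in the saline arm (Mmp2 and Timp2), while 0 did in the OVA arm. The fitted values were similar, at -0.485 and -0.583 for Mmp2 and -0.436 and -0.312 for Timp2 in the saline and OVA arms (log2). The difference of the PM effects was -0.083 ± 0.254 for Mmp2 and 0.141 ± 0.134 for Timp2 (SE), so the arms were not separated. The share of all genes that fell with PM was 7.37% in the saline arm and 6.87% in the OVA arm. Of 8 endothelial markers, 6 fell with PM in the saline arm and 6 in the OVA arm, with summed levels of 3027 to 4318 and 2556 to 2780 CPM without and with PM in the saline arm and of 1822 to 3362 and 1468 to 1937 CPM in the OVA arm. Of 8 smooth muscle and pericyte markers, 6 and 5 fell, with sums of 367 to 939.6 and 391 to 480 CPM in the saline arm and of 329 to 1039 and 329 to 474 CPM in the OVA arm. Of 9 fibroblast markers, 0 and 2 fell with PM, and in the saline arm their sum was 4224 to 5165 CPM without PM and 4278 to 4824 CPM with PM. Of 4 heart muscle markers, 1 fell with PM in the saline arm and 3 in the OVA arm, with sums of 57.3 to 328 and 69.5 to 117 CPM in the saline arm and of 31.9 to 310.3 and 42.5 to 114 CPM in the OVA arm. In OVA with PM, where Mmp3, Mmp11 and Timp3 fell, 7 of 8 endothelial, 6 of 6 alveolar type 1 and 5 of 9 fibroblast markers were lower than in saline with PM. The alveolar type 1 sum was 4880 to 5189 CPM in saline with PM and 3351 to 4411 CPM in OVA with PM. With OVA without PM, 5 of 8 endothelial and 4 of 6 alveolar type 1 markers were lower, and 0 of the 10 members passed as lower. Timp3 (-0.38, edgeR adjusted p = 0.0893) and Mmp11 (-0.26, edgeR adjusted p = 0.141) had negative values there without passing. Both passed in some of the other fits given above. Among all genes 9.27% were lower in that comparison and 9.57% with OVA with PM. The part of these cells in the lower Mmp2, Mmp3, Mmp11, Timp2 and Timp3 was not tested.

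Other genes of the system were counted from lists drawn from general knowledge. Of 16 further metalloproteinase genes, 7 passed the filter in OVA without PM, and 2 rose, beside 14.4% of all genes. They were Mmp25, a leukocyte membrane-type protease (1.76 ± 0.21, edgeR adjusted p = 3.78e-05), and Mmp23 (0.34 ± 0.11, edgeR adjusted p = 0.0292). The gelatinase Mmp9, named after its values were seen, was at 0.46 ± 0.16 (SE; adjusted p = 0.0518 in edgeR). With PM in both arms only Mmp25 of the 7 tested passed, at 1.24 ± 0.24 (SE; edgeR adjusted p = 0.00119). With PM in the saline arm Mmp28 (-0.92 ± 0.22, adjusted p = 0.0205) and Mmp15 (-0.72 ± 0.19, adjusted p = 0.0311) fell, and with PM in the OVA arm Mmp17 (-0.96 ± 0.24, adjusted p = 0.0278) and Mmp28 (-0.99 ± 0.25, adjusted p = 0.0294) fell, all by edgeR.

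Among 6 further inhibitors, 5 were tested. Reck, a membrane-anchored inhibitor, fell with PM in the saline arm (-0.53 ± 0.16, edgeR adjusted p = 0.0424) and in the OVA arm (-0.74 ± 0.19, edgeR adjusted p = 0.03), and was lower in the OVA arm with PM than in the saline arm with PM (-0.60 ± 0.12, edgeR adjusted p = 0.0013). Tfpi2 rose with OVA without PM (0.94 ± 0.28, edgeR adjusted p = 0.0258) and with PM (0.80 ± 0.20, edgeR adjusted p = 0.00704), as did the thrombospondin gene Thbs1 (0.87 ± 0.30, edgeR adjusted p = 0.0486, and 0.67 ± 0.17, edgeR adjusted p = 0.00678). Of 6 tested genes for activation and uptake, Furin, a proprotein convertase that activates Mmp14 and Mmp11, fell with PM in the OVA arm (-0.63 ± 0.12, edgeR adjusted p = 0.0155), as did Plat, the tissue plasminogen activator (-0.49 ± 0.14, edgeR adjusted p = 0.0452). With OVA with PM, Plaur, the urokinase receptor, rose (0.46 ± 0.11, edgeR adjusted p = 0.00647) and Plat fell (-0.43 ± 0.10, edgeR adjusted p = 0.00393). In OVA without PM and with PM in the saline arm 0 of the 6 passed.

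The adamalysins, related proteases with a disintegrin domain, had 4 higher and 3 lower of 19 tested with OVA without PM, beside 14.4% and 9.27% of all genes, at a median of 0.27 against -0.02 for all genes (log2). They had 3 higher and 2 lower of 18 with OVA with PM, beside 13.2% and 9.57% of all genes. With PM they had 0 and 4 of 18 in the saline arm, beside 5.47% and 7.37%, and 1 and 4 of 19 in the OVA arm, beside 2.27% and 6.87%. With OVA without PM, Adam8, found on leukocytes, rose by 1.22 ± 0.18 (SE; edgeR adjusted p = 0.000187), and the aggrecanase Adamts4 by 1.63 ± 0.39 (SE; edgeR adjusted p = 0.00696). Adamts4 was scarce, at means of 0.375 and 1.32 CPM and at most 16 and 44 counts per library in the saline and OVA arms without PM. Adamts1 fell by 0.71 ± 0.18 with OVA without PM (SE; edgeR adjusted p = 0.0106) and by 0.73 ± 0.15 with PM in the saline arm (SE; edgeR adjusted p = 0.0155).

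Of 13 matrix proteins that these proteases can cut, 5 rose with OVA without PM and 0 fell, beside 14.4% and 9.27% of all genes. The proteoglycan Vcan rose by 1.57 ± 0.23, fibronectin Fn1 by 1.33 ± 0.23 and collagen Col3a1 by 1.12 ± 0.22 (SE; edgeR adjusted p = 0.000213, 0.000811 and 0.0019). With OVA with PM 5 of the 13 rose and 4 fell, beside 13.2% and 9.57% of all genes. Those that fell were Col4a2 (-0.51), Col4a1 (-0.38), Nid1 (-0.39) and Dcn (-0.40), with edgeR adjusted p = 0.000195, 0.00302, 0.0148 and 0.046. With PM in the OVA arm 7 of the 13 fell and 0 rose, beside 6.87% and 2.27% of all genes, at a median log2 fold change of -0.75 against -0.002 for all genes. Basement membrane collagens Col4a1 (-1.09 ± 0.21) and Col4a2 (-1.21 ± 0.25) and elastin Eln (-0.95 ± 0.23) were among them (SE; edgeR adjusted p = 0.0155, 0.017 and 0.0258). Over all genes, 0 passed in this comparison when replicate 1 or replicate 6 of the OVA arm with PM was left out. These calls, and those of every other gene given for PM in the OVA arm, were thus lost in those fits. Eln (-0.70 ± 0.17), Col4a2 (-0.91 ± 0.24) and Col4a1 (-0.76 ± 0.22) also fell with PM in the saline arm (SE; edgeR adjusted p = 0.0221, 0.0317 and 0.0405).

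Some genes followed the members closely over the 22 libraries, which share depth and group structure, so the values are given without a test. Of 13559 genes compared, those with a Pearson r to Mmp12 in log2 CPM among the 3 highest included F10, coagulation factor X (0.980), and Itgax, the integrin CD11c (0.973). For Mmp19 the 3 highest were the chemokine gene Ccl9 (0.969), the cathepsin gene Ctsk (0.969) and F10 (0.965). For Timp1 they were genes of the acute-phase response, Lcn2 (0.936), Saa3 (0.929) and Cfb (0.925).

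For Mmp14 they were Nfkb1 (0.955), Nfkb2 (0.946), both subunits of NF-kB, and Pip5k1c (0.939). Timp3 was closest to Abca5 (0.978), Clic5 (0.971) and Lmo7 (0.967), Mmp11 to Sema3b (0.956), Adcy4 (0.946) and the endothelial receptor gene Robo4 (0.944), Mmp2 to Arap1 (0.922), Pmepa1 (0.918) and Fgfr1 (0.916), and Timp2 to Kansl3 (0.955), Mesdc1 (0.913) and Pofut1 (0.913). Mmp13 was closest to Tnfrsf11a (0.918), Snap29 (0.912) and Spns3 (0.905), and Mmp3 had weaker neighbours, which included Ccdc127 (0.743) and Zscan12 (0.724).

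Within groups, after the group means were removed, Mmp12 and Mmp19 still moved together (r = 0.900 over 22 libraries), and libraries with more Mmp12 had less Timp3 (r = -0.779). Timp1 and Timp3 also ran against each other (r = -0.755), while Mmp2 went with Mmp14 (r = 0.599). These values are descriptions, and the shallow libraries weigh in them as much as the deep ones. The OVA arm libraries with low Muc5ac, which had the lowest Mmp12 and Mmp19 of their groups, also enter them. The correlations were not computed without those libraries.

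The balance of protease and inhibitor mRNA was read as ratios of counts within a library. The Mmp12 to Timp1 ratio had medians of 2.44, 2.01, 8.22 and 22.6 in saline without PM, saline with PM, OVA without PM and OVA with PM, and ranges of 1.67 to 3.26, 1.21 to 3.96, 1.68 to 12.3 and 5.43 to 30.8. All 5 libraries of the OVA arm with PM were above both saline groups. The Timp1 to Timp3 ratio had medians of 0.0140, 0.0939, 0.0728 and 0.0885 in the same order, so the medians of the other 3 groups were above that of saline without PM. A ratio of counts also depends on the lengths of the genes and is not a ratio of proteins. Per kilobase of exon, the mean levels of Timp1 and Timp3 were 12.4 and 77.8 CPM per kb in saline without PM, 49.01 and 71.8 in saline with PM, 45.4 and 58.9 in OVA without PM, and 44.1 and 53.2 in OVA with PM. The length used for Timp3 was 8144 bases, while its longest transcript has 4722. For Timp1 these were 888 and 883 bases, so by transcript length Timp3 would stand further above Timp1.

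Several members share exonic bases with a gene on the other strand, and the sources used here do not state whether counting used strand, although the kit marks it. Timp3 shares 1733 bases with Syn3, which was counted at group means of 1.77 to 2.54 CPM. Mmp19 shares 789 bases with Tmem198b (15.6 to 17.5 CPM), Mmp12 shares 157 with Mmp1b (0 counts), and Mmp11 shares 155 with Chchd10 (114 to 133 CPM). Timp1 lies inside Syn1 (0.617 to 2.24 CPM) and shares no exonic base with it. How reads in shared bases were assigned was not tested.

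The authors' deposited table for OVA against saline without PM gave the same sign for the 5 called members, with log2 fold changes of 1.88 for Mmp12, 1.55 for Timp1, 1.34 for Mmp13, 1.07 for Mmp19 and 0.68 for Mmp14. In the authors' deposited table Timp3 passed there too, at -0.37 (adjusted p = 0.0488). For PM in the saline arm the authors' deposited table gave 1.06 for Timp1 and 1.27 for Mmp12, and for PM in the OVA arm the authors' deposited table gave 0.29 for Mmp12 and called Mmp19 (0.58, adjusted p = 0.0443) and Timp2 (-0.29, adjusted p = 0.00236). The deposited fold changes of the high-spread genes were smaller than those of the present fits.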

How the data were processed

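Polyadenylated RNA of 22 lung libraries was sequenced (400 ng of RNA, stranded kit, single ends of 75 cycles, 24 libraries per run, per the labels' protocols), and the submitters' processing notes name bcl2fastq and the mm10 build. Neither aligner nor counter is given in the sources used here. Raw read counts per gene were deposited by the authors in 3 tables, and 12 library columns shared between them were identical. The authors also deposited log2 fold changes and adjusted p-values of their own, used only where named. Of 24421 rows, 16 with date-like names (0.152% to 0.195% of counts) were left out. Replicates differed beyond sampling noise (chi-square per degree of freedom 2.63 to 84.9). In the saline arm without PM, replicates 5 and 6 were close to each other (3.49), against 18.8 to 54.7 for either with replicates 1 to 4. Whether they came from the same animal is not given, and they were counted as separate libraries. Without replicate 5 or 6, 579 or 586 genes passed with PM in the saline arm, in place of 1862. All fits that left out a library gave 490 to 4112.

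The members and lists were chosen with earlier results of these data known. Members were all named, list genes were up to 4 per comparison past the threshold by smallest p, and likeness was Pearson r over genes averaging 1 CPM or more, without predicted loci and receptor segments. Genes were kept by edgeR's filter (minimum count 10, total 15), scaled by trimmed means of M values and tested with the quasi-likelihood F test of edgeR 4.0.16 in R 4.3.3, with the Benjamini-Hochberg threshold at 0.05 over all genes. All 10 members passed the filter in each comparison. Standard errors were the fold change over the square root of F, and CPM used scaling over all libraries. A model of all 4 groups tested whether the PM effect differed between the arms. The authors' counts give the depth, and shallow libraries give coarse values, with 3 counts equal to 10.1 CPM in the shallowest and 0.107 CPM in the deepest.

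Alternatives were DESeq2 1.42.0, its size factors, library totals, other filters, all 4 groups in one fit, a replicate block, a length and GC offset, leaving out libraries under 2 M counts, and leaving out each library. Leaving out the OVA arm libraries with low Muc5ac was chosen after seeing the data. The scripts were tested on simulated data. Promoters were from RefSeq and gene positions from GENCODE M21. Some of the genes most like a member are not reported here.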

Additional observations from a re-analysis of the deposited data

Results flagged for a closer look

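Of 40 sets of log2 CPM values (10 genes in 4 groups), 3 held a library far from the others by Dixon's test at 95%, a rate that chance alone gives about once in 20 sets. The gaps and ranges below are on the log2 scale, while levels are in CPM. Mmp13 in replicate 2 of the saline arm with PM was the highest of its group at 3.13 CPM, with a gap of 0.742 of the group's range to the nearest library. Timp3 in the same library was also the highest of its group, at 721 CPM, with a gap of 0.836 of the range, and the fall of Timp3 in the OVA arm with PM did not pass without it. Mmp19 in replicate 3 of the saline arm without PM was the highest at 36.3 CPM, with a gap of 0.693 of the range, and it still lay below every library of the groups Mmp19 was compared with.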

How the results depend on the processing

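Signs of the members' fold changes held in most fits, and those that turned were all values that did not pass the test. Outside single left-out libraries these were Timp1 with PM in the OVA arm (-0.026 with library totals, -0.215 with the length and GC offset, -0.019 without the OVA arm libraries with low Muc5ac), Timp1 in OVA with PM (0.20 with the replicate block), Mmp3 in OVA without PM (0.035 without the low Muc5ac libraries) and the difference of the PM effects for Timp3 (0.004 with the offset, 0.001 without the low Muc5ac libraries). Leaving out a library gave -0.125 to 0.035 for Mmp3 and -0.076 to 0.025 for Timp2 in OVA without PM, -0.05 to 0.26 for Timp1 with PM in the OVA arm and -0.32 to 0.11 for Timp1 in OVA with PM. For the difference it gave -0.207 to 0.039 (Mmp2), -0.76 to 0.13 (Mmp12), -0.14 to 0.81 (Mmp13), -0.185 to 0.019 (Mmp14), -0.061 to 0.303 (Mmp19) and -0.111 to 0.055 (Timp3). The cause was not tested.

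The count of members past the threshold for PM in the OVA arm (1) was 4 with library totals, 3 with all 4 groups in the fit, 0 with the length and GC offset, 3 without libraries under 2 M counts, and 0 to 6 when a library was left out. The difference had 1 with the offset and 0 to 1 without a library, PM in the saline arm 3 to 8, OVA without PM 5 to 7 and OVA with PM 6 to 8. Over all genes, PM in the OVA arm went from 1339 to 2054 with library totals, 146 with the offset, 3472 without the shallow libraries, 890 without the low Muc5ac libraries and 0 to 3396 without a library. PM in the saline arm went from 1862 to between 490 and 4112 without a library, and the difference from 14 to 24 with DESeq2, 22 without the low Muc5ac libraries and 8 to 27 without a library. OVA without PM gave 2554 to 4127 and OVA with PM 2259 to 3483 without a library.

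Replicate numbers are shared between groups, and the correlation of same-numbered libraries' deviations was -0.168 to 0.614. In OVA without PM it was 0.42, 0.614 and 0.18 for replicates 4, 5 and 6 and at most 0.002 for the others, and in no comparison was every pair above 0.1, so the numbers were not taken as a pairing. With the replicate block 8 members passed in OVA without PM, Mmp2 (0.387, adjusted p = 0.0106), Mmp11 (-0.276, 0.0415) and Timp3 (-0.379, 0.0335) in addition to the 5. With PM in the saline arm Mmp3 (0.368, 0.0291) and Mmp14 (-0.526, 0.00887) passed too, and with PM in the OVA arm 0 did, with Mmp19 at 0.968 (0.079), all in edgeR. The genes called were 3193 with PM in the saline arm and 565 with PM in the OVA arm. Depth limits Mmp13 most, with 0 to 198 counts per library.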

Other observations

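The 2 OVA arm libraries with low Muc5ac also stood at the ends of their groups for most of these genes. Replicate 2 of the OVA arm without PM had the lowest Mmp12 (37.0 CPM), Mmp14 (42.1), Mmp19 (37.2) and Timp1 (22.1) of its 6 libraries and the highest Mmp11 (60.7) and Timp3 (603). Replicate 4 of the OVA arm with PM had the lowest Mmp12 (127 CPM), Mmp14 (23.5), Mmp19 (60.3) and Timp1 (23.5) of its 5 libraries and the highest Mmp3 (23.5) and Mmp11 (50.3), although its 0.302 M counts make each value coarse. In both, the summed level of 11 monocyte and macrophage markers was the lowest of the group, at 1437 and 1522 CPM. For Mmp12, each lay below the highest library of the saline group with the same PM exposure (39.9 and 138 CPM) and above the others. The libraries were picked out by Muc5ac after the data were seen, and no test was made of them.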
